A study of Mus musculus with 15 samples.

Results

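Inherited ataxias can start from mutations in many genes that do different things in the cell. Here the mouse counterparts of 9 human genes behind dominant ataxias other than spinocerebellar ataxia type 1 were followed in the cerebellum of mice that model that disease. They are Atxn2, Atxn3, Atxn7, Atxn10, Ttbk2, Afg3l2, Ppp2r2b, Elovl4 and Elovl5, a list of gene symbols with no cutoff on a measured value. They make up 9 of the 24420 gene rows in the count table, and all 9 were among the 16808 genes with enough counts to be tested.

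RNA from whole cerebellum was sequenced in 15 libraries, 5 in each of 3 groups. Wild type mice (WT) were compared with mice that carry Atxn1[82Q], an expanded form of the gene mutated in spinocerebellar ataxia type 1 (82Q). Both groups are given as FVB/nJ mice aged 9 weeks. The group called 82Q_M120A carries Atxn1[82Q] together with CalphaLoxM120A, an altered allele of the catalytic subunit of protein kinase A, and is labelled Mix c57Bl/6J:FVB/nJ and 8 weeks old. The study asks what less phosphorylation of ATXN1 by protein kinase A does in this model. No group carries the kinase allele without Atxn1[82Q], so in each comparison with 82Q_M120A the kinase allele, the strain mix and the age cannot be told apart. The submitters describe Atxn1[82Q] as a knockin, and the labels name no promoter or Cre for either allele. They also do not say whether the 5 replicates of a group are separate animals, so p-values reflect variation among the samples as labelled and may be technical. Libraries are numbered within a group by their order in the table, and the numbers do not link groups.

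The 9 genes fall into several classes. ATXN2, ATXN3 and ATXN7 are polyglutamine proteins, in which a run of CAG codons in the coding sequence is longer in patients. ATXN10 carries an expanded repeat in an intron in patients, and PPP2R2B an expanded CAG repeat near its start. TTBK2, AFG3L2, ELOVL4 and ELOVL5 are enzymes that cause ataxia through truncating or missense mutations. Purkinje cells, whose axons carry all output of the cerebellar cortex, are a common site of damage in these disorders.

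The CAG tracts of the 3 polyglutamine genes are shown because the expansion that defines the human diseases lies in such a run. They are read from the mm10 transcripts of GENCODE M21, in the coding direction. Capitals mark the longest run of CAG and CAA codons, both of which encode glutamine.
Atxn2 (chr5:121810916-121810984, plus strand): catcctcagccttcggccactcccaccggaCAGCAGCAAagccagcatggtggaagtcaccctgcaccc
Atxn3 (chr12:101926533-101926581, minus strand): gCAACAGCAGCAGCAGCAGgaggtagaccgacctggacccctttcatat
Atxn7 (chr14:14013126-14013200, plus strand): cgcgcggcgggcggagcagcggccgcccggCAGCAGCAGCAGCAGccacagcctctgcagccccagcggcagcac
The mouse runs are short. Atxn3 has 6 glutamine codons in a row (codons 292 to 297 of 354) and Atxn7 has 5 (codons 25 to 29 of 919). The longest run of Atxn2 is 3 codons (codons 1129 to 1131 of 1285) and lies toward the carboxyl end, away from the amino-terminal site of the human tract. Gene counts measure how much transcript there is and say nothing about the length of these tracts in the mice sequenced.

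The promoters of the fatty acid elongase genes Elovl5 and Elovl4 are shown because these genes fell most in 82Q_M120A against WT. Each is the 250 bases before the transcript start, from RefSeq on GRCm38.p6 (mm10), written in the direction of transcription. Capitals mark matches to CACGTG (an E-box) and to CCAAT or its reverse complement ATTGG.
Elovl5 (chr9:77917115-77917364, plus strand): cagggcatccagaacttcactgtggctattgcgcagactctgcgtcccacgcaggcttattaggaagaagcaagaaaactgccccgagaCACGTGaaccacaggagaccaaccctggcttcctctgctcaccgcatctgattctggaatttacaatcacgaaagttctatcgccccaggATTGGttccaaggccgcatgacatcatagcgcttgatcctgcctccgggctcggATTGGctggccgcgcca
Elovl4 (chr9:83806306-83806555, minus strand): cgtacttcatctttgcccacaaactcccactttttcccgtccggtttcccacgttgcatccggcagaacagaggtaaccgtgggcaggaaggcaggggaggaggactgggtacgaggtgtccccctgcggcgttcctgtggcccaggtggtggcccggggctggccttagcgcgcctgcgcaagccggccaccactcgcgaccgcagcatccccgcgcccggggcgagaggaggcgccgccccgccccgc
The Elovl5 window holds 1 E-box and 2 CCAAT matches, and the Elovl4 window holds neither. Neither holds TGACG or TGACGTCA, the short and the full form of the cyclic AMP response element, nor TCACNCCAC, a sterol response element. All motifs were searched on both strands, and every full form also counts as a short form. Among 32851 mouse promoters of the same length, 6.02% hold CACGTG, 33.8% CCAAT, 17.8% TGACG, 1.55% TGACGTCA and 1.05% TCACNCCAC.

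Library depth ran from 38.3 to 99.4 mega counts (M), and a member gene rested on between 1200 counts (Atxn3 in the shallowest library, WT-5) and 24235 counts (Ttbk2 in 82Q-3). The summed level of 17 Purkinje cell markers was 13845 to 15250 CPM (counts per mega counts) in WT and 6033 to 6918 in 82Q, with 6393 to 7866 in 82Q_M120A, and no marker was at 0 in any group. Atxn1 itself was not called in any comparison, and gene counts do not separate its alleles. In bulk tissue fewer Purkinje cells and less RNA per cell cannot be told apart. Choroid plexus markers, which belong to tissue beside the cerebellum, varied from 203 to 4668 CPM between libraries and within every group. Against WT, 18.7% of all genes tested were called in 82Q and 36.4% in 82Q_M120A, and 18.9% were called between the mutant groups, at an adjusted p under 0.05 (edgeR quasi-likelihood, Benjamini-Hochberg over 16808 genes). The comparisons share libraries, so their results are not independent of each other. Values below are CPM scaled with TMM factors, mean ± SD with n = 5, and fold changes are log2 ± SE.

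Per kilobase of annotated exon, Atxn10 was by far the highest of the 9 genes, at 105 CPM per kb in WT. Elovl5 followed at 36.8, Elovl4 at 23.3 and Ttbk2 at 20.4. Ppp2r2b stood at 10.9, Afg3l2 at 10.1 and Atxn7 at 7.22. Atxn3 (5.88) and Atxn2 (5.84) were lowest, and their WT libraries overlapped, whereas every other pair of neighbours in this order was separate in WT. The means kept this order in both mutant groups. In both of these groups the libraries of Elovl4 and Ttbk2 overlapped, and in 82Q_M120A those of Atxn3 and Atxn2 did too. The length used merges all annotated exons of a gene, 1937 bases for Atxn10 and 15689 for Atxn2. It need not be the length of the transcripts present, so this order depends on the annotation. Without division by length, Ttbk2 was highest in WT (233 CPM) and Atxn3 lowest (31.8 CPM).

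**Figure D1:**
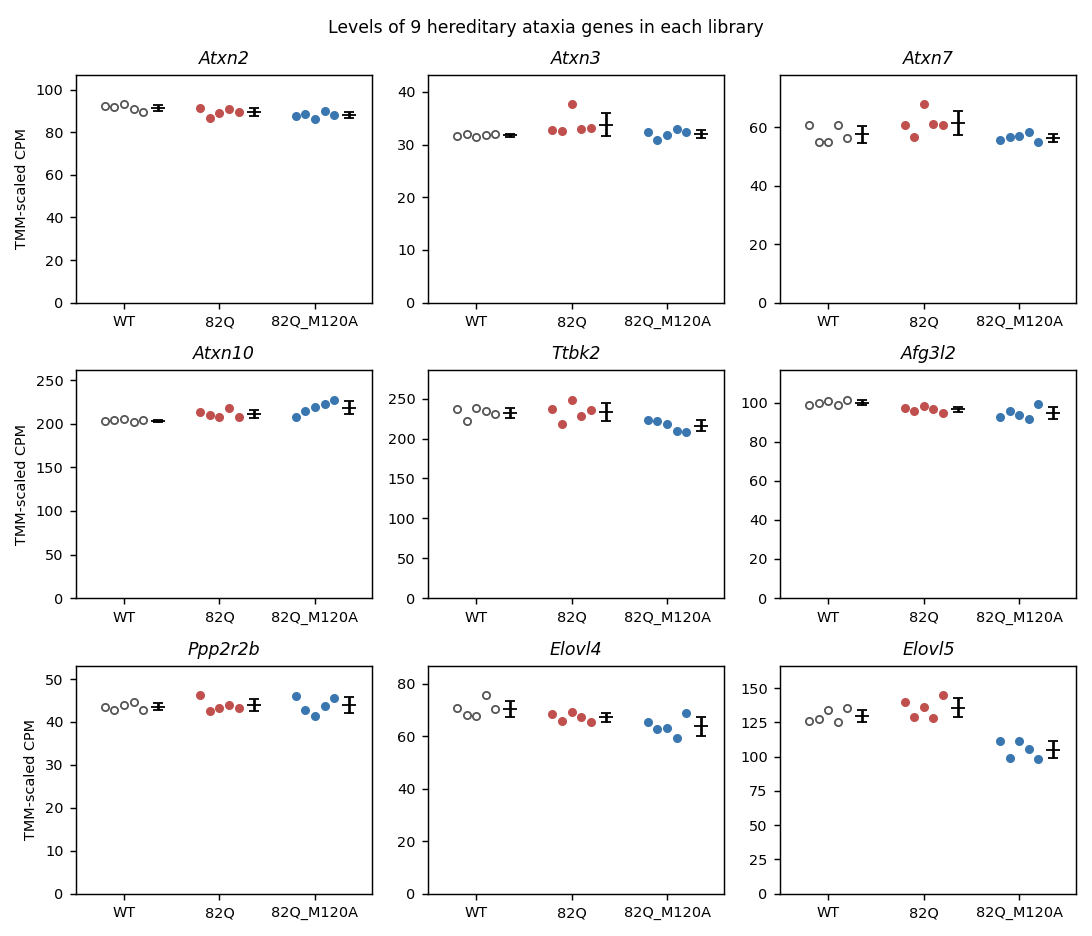
Level of each of the 9 ataxia genes in every library (TMM-scaled CPM, axis from 0), with open circles for WT, red for 82Q and blue for 82Q_M120A, and mean ± SD (n = 5) as bars beside each group. Elovl5 is the panel in which the 5 libraries of 82Q_M120A, at 98.2 to 111.3 CPM, all lie below those of the other groups.

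In 82Q against WT none of these transcripts changed past the threshold. Counted over tools, 0 of 9 were called by edgeR, by DESeq2 or by limma-voom, and 2 of 9, Atxn3 and Atxn7, had an unadjusted p under 0.05 in edgeR. Scaling by library size alone called 3 of 9, all higher: Atxn3, Atxn7 and Atxn10. The median log2 fold change of the 9 was 0.01, as it was for all genes tested. The sizes were small: 8 of 9 changes were below the median absolute change of all genes tested (0.09 on the log2 scale), and all 9 confidence intervals (95%) lay between -0.15 and 0.19. Yet 3 of 9 (33.3%) had groups that did not overlap, Atxn3 and Atxn10 higher in 82Q and Afg3l2 lower, though scaling by library size alone moved Afg3l2 to 0.000303. The shares over all genes tested were 16.6% in either direction, 6.81% higher and 9.79% lower. The 82Q-3 library was the highest of its group for 5 of the 9 genes, and 82Q-2 the lowest for 5.

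Atxn10 rose and Ttbk2, Afg3l2, Elovl4 and Elovl5 fell in 82Q_M120A against WT. That is 5 of 9 called (55.6%, beside 36.4% of all genes tested). The count depends on the setting: it was 2 (1 higher, 1 lower) with scaling by library size alone, 3 with a choroid plexus marker score as a covariate, and 3 to 6 with single libraries left out (3 without 82Q_M120A-4). Among all genes, 18.6% were called higher and 17.8% lower. The median of the 9 was -0.06, against 0.01 over all genes tested. Against 82Q, 2 of 9 were called (22.2%, beside 18.9%), Ttbk2 and Elovl5, both lower (8.63% of all genes were lower and 10.3% higher). Groups did not overlap for Atxn10 and Elovl5 against WT (22.2% of the 9, beside 25.3%, of which 12.4% higher and 12.9% lower) and for Elovl5 against 82Q (11.1%, beside 12.1%, of which 6.63% higher and 5.5% lower). Apart from Elovl5 every called change was under 0.15 on the log2 scale.

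**Figure D2:**
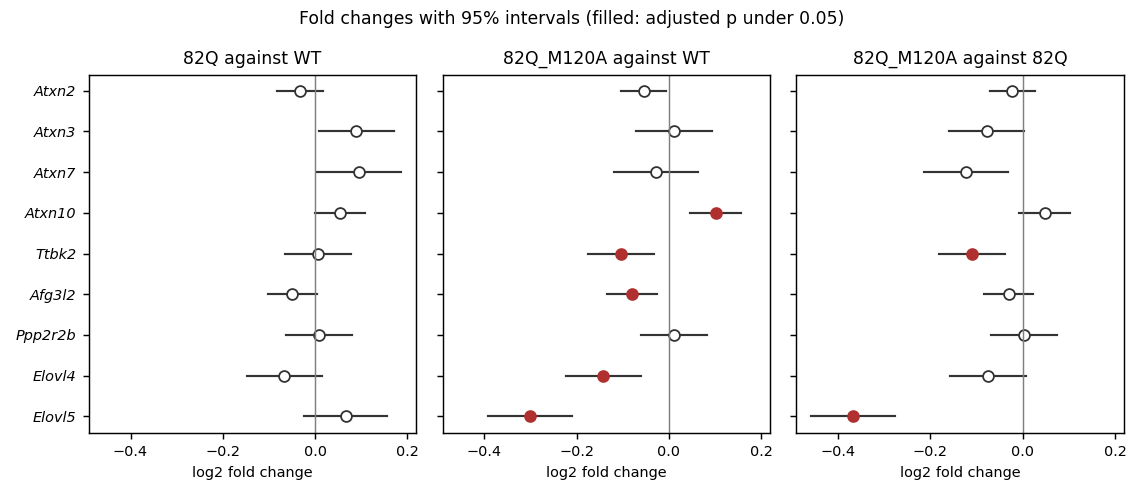
Log2 fold change of each of the 9 genes in the 3 comparisons, with 95% confidence intervals; filled points have an adjusted p under 0.05 (edgeR quasi-likelihood). Elovl5 lies at -0.30 against WT and -0.37 against 82Q, and the other called genes lie between -0.14 and 0.10.

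Atxn2 (chr5:121711337-121816493) encodes an RNA-binding protein that works with poly(A)-binding protein in translation and in stress granules. Its transcript was 91.7 ± 1.43 CPM in WT and 89.7 ± 1.79 in 82Q, with 88.3 ± 1.40 in 82Q_M120A, and the libraries of the 3 groups overlapped. The largest difference, 82Q_M120A against WT, was -0.06 ± 0.02 and missed the threshold (adjusted p = 0.0737, edgeR), and it passed in DESeq2 (0.0203). Among 13 tested RNA-binding partners of ATXN2, 1 was called in 82Q (7.69%) and 3 in 82Q_M120A (23.1%) against WT, and 1 between the mutant groups (7.69%), all below the shares of all genes. Rbfox1, a neuronal splicing factor that binds ATXN2, fell from 223 ± 11.1 to 193 ± 12.1 CPM in 82Q (-0.21 ± 0.05, adjusted p = 0.00571) and stood at 223 ± 14.3 in 82Q_M120A, higher than in 82Q by 0.21 ± 0.05 (adjusted p = 0.00604). The decapping enzyme gene Dcp2 fell in 82Q_M120A against WT (-0.14 ± 0.03, adjusted p = 0.0041), as did the stress granule gene G3bp2 (-0.11 ± 0.03).

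Atxn3 (chr12:101918901-101958246) encodes a deubiquitinase that trims ubiquitin chains on proteins bound for the proteasome. The WT libraries held 31.6, 32.0, 31.5, 31.8 and 32.1 CPM, the 82Q libraries 32.8, 32.6, 37.6, 32.9 and 33.0, and those of 82Q_M120A 32.4, 30.8, 31.7, 32.9 and 32.4. All 5 of 82Q lay above all 5 of WT, by a narrow margin except for 82Q-3. The difference of 0.09 ± 0.04 was not called (adjusted p = 0.126, edgeR) and was 0.05 without 82Q-3. In 82Q_M120A the level was that of WT within the spread (0.01 ± 0.04, adjusted p = 0.846). Of 14 tested genes for ATXN3 partners in the ubiquitin and proteasome pathway, 3 fell and 0 rose in 82Q against WT, with 18.7% of all genes called, and 4 fell and 3 rose in 82Q_M120A against WT, with 36.4% called. Josd1, a deubiquitinase of the same Josephin family, went from 88.2 ± 2.27 CPM in WT to 81.0 ± 3.57 in 82Q (-0.12 ± 0.03, adjusted p = 0.0114) and 77.1 ± 1.99 in 82Q_M120A. The ubiquitin ligase gene Stub1, itself an ataxia gene in humans, fell in 82Q by 0.13 and in 82Q_M120A by 0.15 against WT. Ube4b, a ubiquitin chain elongation factor, rose in 82Q_M120A against both WT (0.11 ± 0.03) and 82Q (0.14 ± 0.03).

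Atxn7 (chr14:13961440-14107302) encodes the subunit that anchors the deubiquitinase module to SAGA, a complex that modifies histones at promoters. Its level was 57.6 ± 2.98 CPM in WT and 61.5 ± 4.04 in 82Q, with 56.5 ± 1.37 in 82Q_M120A. The 82Q libraries (60.9, 56.7, 67.9, 61.2 and 60.9 CPM) overlapped both other groups, with 82Q-3 highest and 82Q-2 lowest. The difference between 82Q_M120A and 82Q, -0.12 ± 0.04, lay just outside the threshold (adjusted p = 0.0556, edgeR). It passed in 4 of 9 other settings, with adjusted p from 0.0199 (the choroid plexus covariate) to 0.0496 (library size alone), and in 1 of 10 fits that left out a library (0.0177 without 82Q-2). Of 20 tested SAGA genes, 4 were called in 82Q (20.0%) and 7 in 82Q_M120A (35.0%) against WT, and 3 between the mutant groups (15%), close to the shares of all genes. Atxn7l3, a partner in the same deubiquitinase module, fell from 165 ± 2.78 CPM to 147 ± 6.11 in 82Q (-0.16 ± 0.03, adjusted p = 0.00168) and was 147 ± 6.17 in 82Q_M120A. Tada1 held 54.1 ± 1.67 CPM in WT and 54.5 ± 1.38 in 82Q and fell to 48.0 ± 1.73 in 82Q_M120A. Of 11 tested genes of the ataxin families, some of the 9 included, 2 were called in 82Q (18.2%, beside 18.7% of all genes) and 4 in 82Q_M120A (36.4%, the share of all genes) against WT. The paralogues Atxn7l1 and Atxn7l3b rose by 0.12 and 0.08 in 82Q_M120A against WT.

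Atxn10 (chr15:85336245-85463212) encodes a cytoplasmic armadillo-repeat protein that has been tied to neuron survival and the growth of neurites. It was the only one of the 9 called higher in any comparison by edgeR with TMM factors, whereas scaling by library size alone also called Atxn3 and Atxn7 higher in 82Q. The WT libraries held 203.3, 204.4, 205.3, 202.2 and 204.0 CPM, those of 82Q 213.1, 210.5, 207.7, 218.8 and 207.9, and those of 82Q_M120A 208.1, 214.7, 219.7, 223.0 and 227.7. All 10 libraries with Atxn1[82Q] lay above all 5 of WT, and the 2 mutant groups overlapped. The rise in 82Q_M120A was 0.10 ± 0.03 over WT, 1.07-fold (adjusted p = 0.00546, edgeR). That call was lost with the choroid plexus score as a covariate (adjusted p = 0.0647). The difference of 82Q from WT was 0.05 ± 0.03 (adjusted p = 0.171), and that between the mutant groups 0.05 ± 0.03 (adjusted p = 0.227).

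Ttbk2 (chr2:120732816-120850604) encodes tau tubulin kinase 2, which starts the building of the primary cilium at the mother centriole. The WT libraries held 237.1, 222.7, 238.4, 234.4 and 230.5 CPM, those of 82Q 236.7, 217.8, 248.7, 228.5 and 236.1, and those of 82Q_M120A 223.7, 222.2, 217.8, 209.9 and 208.6. The 82Q_M120A libraries lay toward the low end but overlapped both other groups. The transcript was 1.07-fold lower than in WT (-0.10 ± 0.03, adjusted p = 0.0228, edgeR) and 1.08-fold lower than in 82Q (-0.11 ± 0.03, adjusted p = 0.0302). Both calls lay near the threshold: leaving out single libraries ended the first in 3 of 10 cases (WT-1, 82Q_M120A-4 or 82Q_M120A-5) and the second in 5 of 10. The first was also lost with scaling by library size alone (-0.05, adjusted p = 0.21) and with the choroid plexus covariate (-0.11, adjusted p = 0.0506). Fitting only 82Q_M120A and 82Q ended the second (adjusted p = 0.075) with the fold unchanged at -0.11. The annotated exons of Ttbk2 share 3409 bases (29.9%) with those of Cdan1 on the same strand, so how reads there were counted bears on both genes. Cdan1, a gene of congenital anaemia named here because of that overlap, moved the other way, from 59.7 CPM in WT to 64.3 in 82Q_M120A (0.11 ± 0.03, adjusted p = 0.0167).

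Of 16 tested genes for TTBK2 and the first steps of cilium building, 2 rose and 0 fell in 82Q against WT (12.5%, beside 18.7% of all genes), and 3 rose and 3 fell in 82Q_M120A against WT (37.5%, beside 36.4%). The paralogue Ttbk1, a neuronal tau kinase, fell from 110 ± 2.47 to 97.3 ± 7.32 CPM in 82Q_M120A (-0.18 ± 0.05, adjusted p = 0.00506). The microtubule affinity kinase gene Mark1 fell too (-0.16 ± 0.03). Cep97, whose product caps the mother centriole until cilium growth starts, rose from 26.0 ± 1.06 CPM in WT to 34.2 ± 4.25 in 82Q_M120A (0.39 ± 0.07, adjusted p = 0.000256), and the distal appendage gene Cep89 rose by 0.27.

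Afg3l2 (chr18:67404764-67449172) encodes a subunit of the m-AAA protease, which clears and processes proteins in the inner mitochondrial membrane. The WT libraries held 98.9, 99.7, 100.8, 98.9 and 101.4 CPM, those of 82Q 97.2, 95.8, 98.4, 96.8 and 94.7, and those of 82Q_M120A 92.7, 95.8, 93.7, 91.5 and 99.2. All 5 of 82Q lay below all 5 of WT, and 1 library of 82Q_M120A reached the WT range. The fall was called in 82Q_M120A against WT (-0.08 ± 0.03, 1.06-fold, adjusted p = 0.0195, edgeR) but not in 82Q (-0.05 ± 0.03, adjusted p = 0.196), and the groups with Atxn1[82Q] did not differ past the threshold (-0.03 ± 0.03, adjusted p = 0.446). The call was lost without 82Q_M120A-4 (adjusted p = 0.055) and with scaling by library size alone (0.311).

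Around the m-AAA protease, 1 of 14 tested genes was called in 82Q against WT (7.14%, beside 18.7% of all genes). In 82Q_M120A against WT 6 were called (42.9%, near the 36.4% of all genes), all lower (17.8% of all genes were). The 1 gene in 82Q was Spg7, which encodes paraplegin, the partner subunit of AFG3L2 in the protease. It fell from 84.5 ± 2.57 CPM to 74.3 ± 2.22 in 82Q (-0.19 ± 0.03, adjusted p = 0.000358) and was 74.2 ± 2.78 in 82Q_M120A. Afg3l1, the close paralogue, was chosen after its values were seen and was not called in any of the 3 comparisons (54.7, 57.1 and 56.5 CPM). Clpx, the unfoldase of the matrix protease ClpXP, fell from 61.5 ± 3.0 CPM in 82Q to 53.5 ± 1.98 in 82Q_M120A (-0.20 ± 0.04, adjusted p = 0.000991). The prohibitin gene Phb (-0.13 ± 0.04) and the calcium uniporter gene Mcu (-0.09 ± 0.03) fell in 82Q_M120A against WT.

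Ppp2r2b (chr18:42637432-43059471) encodes a neuronal regulatory subunit that steers protein phosphatase 2A to its targets. Its level moved little, at 43.6 ± 0.792 CPM in WT and 43.8 ± 1.41 in 82Q, with 43.9 ± 1.91 in 82Q_M120A, and all groups overlapped. Its log2 fold changes were 0.01, 0.01 and 0.00, each with an SE of 0.03, and the intervals ran from -0.07 to 0.08. Of 19 tested subunit genes of the phosphatase, 5 were called in each mutant group against WT. That share of 26.3% lies above the 18.7% of all genes in 82Q and below the 36.4% in 82Q_M120A. Strn3, a regulatory subunit of the striatin family, fell from 206 ± 4.05 CPM to 137 ± 6.94 in 82Q (-0.59 ± 0.03, adjusted p = 4.87e-10) and was 134 ± 4.67 in 82Q_M120A. Against 82Q, 4 of 19 rose in 82Q_M120A and 0 fell (21.1%, near the 18.9% of all genes called, with 10.3% higher). They included the catalytic subunit gene Ppp2cb (77.2 ± 2.53 to 87.4 ± 2.76 CPM, 0.18 ± 0.03) and the regulatory subunit gene Ppp2r5b (206 ± 7.93 to 227 ± 9.13 CPM, 0.14 ± 0.03).

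Elovl5 (chr9:77917364-77984519), an enzyme of the endoplasmic reticulum that lengthens polyunsaturated fatty acids, showed the largest change of the 9. The WT libraries held 126.3, 127.2, 133.7, 125.5 and 135.6 CPM, those of 82Q 139.9, 129.0, 136.5, 128.5 and 144.8, and those of 82Q_M120A 111.3, 99.4, 111.3, 105.6 and 98.2. All 5 libraries of 82Q_M120A lay below all 10 of the other groups, and WT and 82Q overlapped. Elovl5 was 1.23-fold lower than in WT (-0.30 ± 0.04, adjusted p = 2.77e-05, edgeR) and 1.29-fold lower than in 82Q (-0.37 ± 0.04, interval -0.46 to -0.28, adjusted p = 9.15e-06). In 82Q against WT the difference was 0.07 ± 0.04 in the other direction and not called (adjusted p = 0.321). Of all genes tested, 87.2% changed by less than Elovl5 did between 82Q_M120A and 82Q, and 75.4% did against WT. Both calls held with each single library left out, and neither passed a test against a 1.2-fold change (adjusted p = 0.398 against WT and 0.0708 against 82Q).

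Elovl4 (chr9:83778692-83806277), which makes fatty acids of very long chains, fell less. The WT libraries held 70.8, 68.1, 67.8, 75.6 and 70.2 CPM, those of 82Q 68.6, 65.9, 69.4, 67.3 and 65.4, and those of 82Q_M120A 65.3, 62.7, 63.3, 59.2 and 68.9. The groups overlapped, and 4 of the 5 libraries of 82Q_M120A lay below all of WT. The fall was called against WT (-0.14 ± 0.04, 1.10-fold, adjusted p = 0.00817, edgeR) but not against 82Q (-0.08 ± 0.04, adjusted p = 0.195). In 82Q against WT it was -0.07 ± 0.04 (adjusted p = 0.263). Scaling by library size alone ended the call against WT (adjusted p = 0.0603).

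The other genes of fatty acid elongation and desaturation moved in both directions. Of 18 tested, 3 rose and 4 fell in 82Q against WT (38.9%, beside 18.7% of all genes). In 82Q_M120A 2 rose and 4 fell against WT (33.3%, beside 36.4%), and 2 rose and 3 fell against 82Q (27.8%, beside 18.9%). Tecr, the reductase of the last step of elongation, fell from 368 ± 6.51 CPM to 306 ± 10.9 in 82Q (-0.27 ± 0.03, adjusted p = 4.08e-06) and was 360 ± 7.43 in 82Q_M120A, higher than in 82Q by 0.24 ± 0.03. For the dehydratases of the elongation cycle, Hacd2 rose in both mutant groups (35.4 CPM in 82Q and 34.3 in 82Q_M120A, against 29.5 in WT), and Hacd3 was lower in 82Q_M120A (192 ± 4.22 CPM) than in WT (213 ± 3.75) and 82Q (211 ± 8.08). Acsl6, which couples long fatty acids to coenzyme A, rose in 82Q (0.14 ± 0.03) and in 82Q_M120A (0.18 ± 0.03) against WT. Chosen after their values were seen, Fads2, the desaturase that works in the same pathway as Elovl5, fell in 82Q_M120A against 82Q (85.5 ± 3.18 to 75.1 ± 4.47 CPM, -0.19 ± 0.04, adjusted p = 0.00461), and the elongases Elovl2 (-0.22 ± 0.06) and Elovl6 (-0.13 ± 0.04) fell in 82Q against WT.

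Cell type markers also differed between 82Q_M120A and the other groups. Of all genes, 18.9% were called in 82Q_M120A against 82Q, 10.3% higher and 8.63% lower, and several shares below lie near these. Against 82Q, 4 of 8 interneuron markers fell and 0 rose, with summed levels of 2126 to 2547 CPM in 82Q_M120A, 2525 to 2754 in 82Q and 2809 to 3211 in WT. Of 10 oligodendrocyte markers 4 rose (7192 to 7857 CPM, against 6384 to 7717 in 82Q and 5180 to 6232 in WT), and of 10 vascular markers 3 rose (343 to 379 CPM, against 284 to 312 and 274 to 332). Of 17 Purkinje cell markers 5 rose and 0 fell, and of 12 granule cell markers 3 rose and 0 fell (7082 to 7821 CPM, against 6544 to 7282 and 6432 to 7388). Of 10 astrocyte markers 2 fell, of 6 oligodendrocyte precursor markers 2 rose, and of 12 microglia markers 2 rose and 2 fell. No marker of these lists was at 0 in a whole group. Their part in the changes of Elovl5, Elovl4, Ttbk2, Afg3l2 and Atxn10 was not tested. With the choroid plexus score as a covariate Elovl5 was still lower, with a log2 fold change of -0.26 against WT (adjusted p = 0.000594) and of -0.34 against 82Q (adjusted p = 3.40e-05). Against WT, Elovl4 (-0.18, adjusted p = 0.00613) and Afg3l2 (-0.09, adjusted p = 0.0302) were also still called, and Atxn10 (0.08, adjusted p = 0.0647) and Ttbk2 (-0.11, adjusted p = 0.0506) were not. Because the plexus score is partly tied to group, a call kept or lost with it does not separate plexus content from group.

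**Figure D3:**
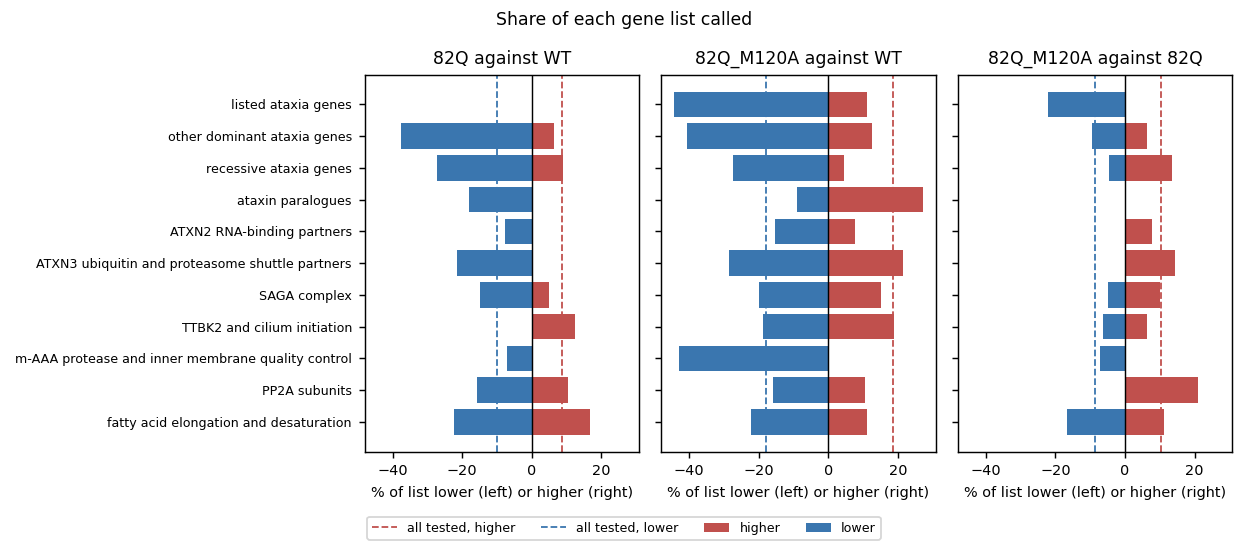
Share of the tested genes of each list called higher (red, right of 0) or lower (blue, left of 0) in the 3 comparisons, with dashed lines at the shares over all genes tested. The 9 ataxia genes have no bar in 82Q against WT, where other dominant ataxia genes were 43.8% called, and extend mainly to the left in both comparisons with 82Q_M120A.

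Outside these 9, several ataxia genes fell in 82Q. Of 32 further dominant ataxia genes tested, 12 fell and 2 rose in 82Q against WT (43.8%, beside 18.7% of all genes), with a median of -0.12. The calcium channel gene Cacna1g fell from 449 ± 11.9 to 175 ± 17.6 CPM (-1.36 ± 0.07), and Bean1 from 15.1 ± 0.714 to 7.29 ± 0.442 (-1.05 ± 0.06). Neither differed past the threshold between 82Q_M120A and 82Q. Of 22 recessive ataxia genes tested, 6 fell and 2 rose in 82Q against WT (36.4%, beside 18.7% of all genes), and 6 fell and 1 rose in 82Q_M120A against WT (31.8%, below the 36.4% of all genes). The difference between these lists and the 9 genes was not tested.

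Among the recessive genes Car8, which is also in the Purkinje cell list, fell in 82Q by 1.37, and Cyp27a1, an enzyme that oxidises cholesterol, by 0.57. Car8 was higher in 82Q_M120A (771 ± 105 CPM) than in 82Q (554 ± 51.7), by 0.48 ± 0.08. Vldlr, a reelin receptor, held 238 ± 6.17 CPM in WT and 230 ± 8.81 in 82Q and fell to 200 ± 5.60 in 82Q_M120A (-0.20 ± 0.03 against 82Q, adjusted p = 0.000148).

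Since strain differs between the groups, the genes within 1 Mb of each of the 9 were counted (the same window in mm10). Where 36.4% of all genes were called in 82Q_M120A against WT, 36 of 47 neighbours of Ttbk2 were (76.6%), 10 of 13 of Elovl5 (76.9%) and 6 of 8 of Elovl4 (75.0%). The shares were 52.6% around Afg3l2, 44.4% around Atxn7, 40.9% around Atxn10, 35.9% around Atxn2, 11.1% around Ppp2r2b and 5.88% around Atxn3. In 82Q against WT, groups of the same labelled strain, 18.7% of all genes were called. There the shares were 31.6% around Afg3l2, 28.2% around Atxn2, 27.3% around Atxn10, 23.4% around Ttbk2 and 22.2% around Atxn7. They were 12.5% around Elovl4, 11.1% around Ppp2r2b, 7.69% around Elovl5 and 5.88% around Atxn3. In 82Q_M120A against 82Q, which also differ in strain, 18.9% of all genes were called. The shares there were 75.0% around Elovl4, 61.7% around Ttbk2, 46.2% around Elovl5 and 36.4% around Atxn10. They were 11.8% around Atxn3, 11.1% around Atxn7 and around Ppp2r2b, 10.5% around Afg3l2 and 10.3% around Atxn2. Neighbours of 1 gene share a region and are not independent, so these shares are a description.

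The neighbours named here were chosen after their values were seen. Around Ttbk2, 20 neighbours rose and 16 fell, some by far more than Ttbk2 did: the phospholipase gene Pla2g4e went from 60.4 CPM in WT to 11.2 in 82Q_M120A and the hair bundle gene Strc from 0.111 to 4.56. Around Elovl5, 6 rose and 4 fell, C920006O11Rik from 0.329 to 2.25 CPM and the low-level helicase gene Ddx43 from 0.246 to 0.104 CPM. Gclc, for glutathione synthesis, was 0.11 lower on the log2 scale (log2 fold change -0.11 ± 0.02), and the kinase gene Ick was 0.25 ± 0.04 higher. Around Elovl4 all 6 called neighbours were lower, among them Bckdhb, a subunit of branched-chain amino acid breakdown (-0.21 ± 0.04), and Hmgn3, a nucleosome-binding protein (-0.15 ± 0.03). Which of strain, kinase allele and age these follow cannot be told apart.

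**Figure D4:**
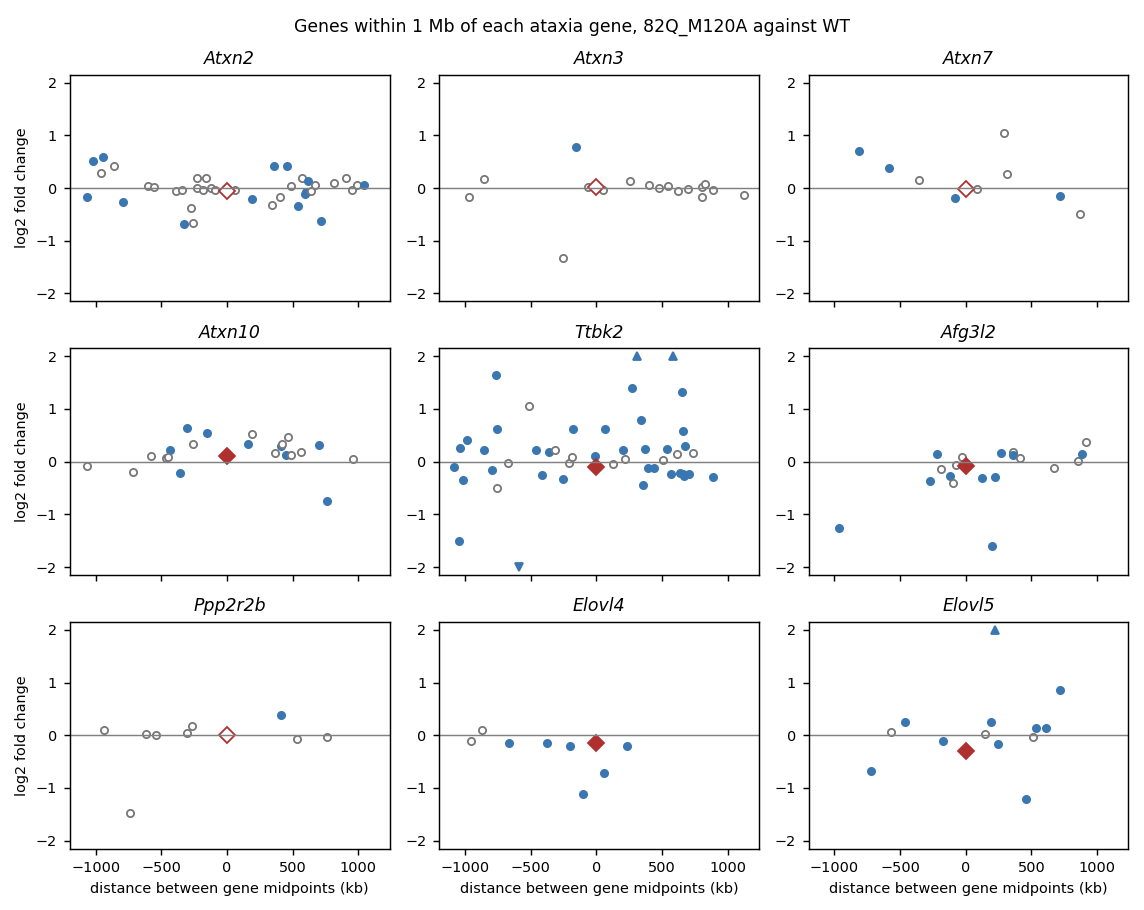
Log2 fold change in 82Q_M120A against WT of the genes within 1 Mb of each ataxia gene, by distance between gene midpoints (kb); filled points were called, open points were not, triangles lie beyond the axis limits, and diamonds are the ataxia genes. Around Ttbk2, Elovl4 and Elovl5 most points are filled (36 of 47, 6 of 8 and 10 of 13), and around Atxn3 1 of 17 is.

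Across the 15 libraries, the genes whose log2 CPM followed each of the 9 most closely were found among 13282 genes that averaged 1 CPM or more, predicted models left out. For Elovl5 the first was Cep162 (Pearson r = 0.96, Spearman rho = 0.86), a centriole gene on the same chromosome (chr9:87189577-87255536). Next came Tcp11l1 (r = 0.94, rho = 0.73) and the phosphatase gene Ppm1e (r = 0.94, rho = 0.92). The closest gene to Atxn7 was Ccnt2 (r = 0.96), to Atxn10 Ank3 (0.94), to Ttbk2 BC030336 (0.93), to Atxn3 Picalm (0.93) and to Afg3l2 Atp6v1g2 (0.91). For Elovl4 it was Fam69a (0.89), for Atxn2 Arhgap35 (0.85) and for Ppp2r2b Gfm1 (0.78). These values include differences between groups, and all points share library depth and tissue makeup, so they describe likeness in these libraries.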

How the data were processed

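The authors deposited a table of read counts per gene symbol for 15 cerebellum libraries. The submitters' processing notes name CASAVA 1.8, HISAT2 2.0.1, featureCounts from Subread, R 3.3.3 and DESeq2 1.14.1 on mm10. No source used here gives the annotation or strand setting. Column names carry the group without a replicate number, and library numbers follow column order. The labels give no batch.

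All 24420 rows were filtered with filterByExpr, which kept 16808 genes with 99.99% of counts, and fitted with edgeR 4.0.16 (quasi-likelihood, robust, TMM) and limma 3.58.1 in R 4.3.3. Group was the only term, tests were two-sided, and Benjamini-Hochberg adjusted p under 0.05 was the threshold. The SE is the fold change over the square root of F. On simulated counts for 82Q against WT, 14 of 50 genes changed 1.2-fold and 48 of 50 changed 1.5-fold were recovered.

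Depth was 38.3 to 99.4 mega counts. In the shallowest library counting error (Poisson coefficient of variation) was 1.08% for Ttbk2 and 2.89% for Atxn3, and for Atxn2, Atxn3, Atxn10, Afg3l2 and Ppp2r2b it exceeded the spread observed in WT. The common biological coefficient of variation was 0.105. Alternatives were DESeq2 1.42.0, RLE factors, limma-voom, scaling by library size alone, other filters, only the groups compared, a 1.2-fold test, a choroid plexus covariate and leaving out each library. The genes and lists were chosen with earlier results of these data known. Named are the 9 genes, up to 4 called genes per list with the smallest adjusted p and the 3 genes most alike; other genes are said to be chosen later. Some genes that this rule names are not reported here. Locations and exon lengths come from GENCODE M21. Promoters come from RefSeq for 7 of 9 genes, and those on chromosome 18 (Afg3l2 and Ppp2r2b) were left out of the search.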

Additional observations from a re-analysis of the deposited data

Results flagged for a closer look

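Atxn3 in the 82Q-3 library stood apart from the rest of its group, at 37.6 CPM, where the other 4 libraries of 82Q lay between 32.6 and 33.0. Of 27 sets of 5 libraries tested in this way (9 genes in 3 groups), it was the only 1 that stood out. A set was flagged when the gap to the nearest library exceeded 0.71 of the range, a cutoff that chance passes in about 1 set in 20. The gap here was 0.91 of the range. The genes share libraries, so the 27 sets are not independent, and the cause of the gap was not tested. Without 82Q-3 the difference between 82Q and WT was 0.05 on the log2 scale, where it was 0.09 with it, and it was not called either way.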

How the results depend on the processing

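Elovl5 stayed lower in 82Q_M120A in all 9 other settings and all 10 fits that left out 1 library, in both comparisons. Its change ran from -0.32 to -0.25 against WT and from -0.39 to -0.34 against 82Q, and it missed the threshold in the 1.2-fold test alone. That test called 689, 1709 and 630 genes in 82Q against WT, 82Q_M120A against WT and 82Q_M120A against 82Q, and 0 of the 9 in each. Scaling by library size alone called 3 of the 9 in 82Q against WT (Atxn3, Atxn7 and Atxn10, higher) and 2 in 82Q_M120A against WT, where Ttbk2, Afg3l2 and Elovl4 were lost. It moved the share of higher calls among all genes from 46.2% to 73.0% in 82Q against WT and from 51.1% to 68.8% in 82Q_M120A against WT, shifted the median of all genes by under 0.1, and turned 3 uncalled changes: Atxn2 (0.0174) and Afg3l2 (0.000303) in 82Q against WT, and Atxn7 (0.0212) in 82Q_M120A against WT. With the choroid plexus covariate 3 of the 9 were called in 82Q_M120A against WT, without Atxn10 (adjusted p = 0.0647) and Ttbk2 (0.0506), and Ppp2r2b turned against 82Q (-0.0024). Fitting only the groups compared left 1 of the 9 against 82Q. Scaling by library size alone leaves out the TMM factors. These ran from 0.971 to 0.987 in WT, from 1.008 to 1.016 in 82Q and from 1.003 to 1.024 in 82Q_M120A. Why the factors differ between groups was not tested, nor why the other settings differ.

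Leaving out 1 library gave 2567 to 3003, 5450 to 6009 and 2562 to 3210 called genes in the same order. Of the 9, it gave 0 in 82Q against WT, 3 to 6 in 82Q_M120A against WT (3 without 82Q_M120A-4) and 1 to 3 against 82Q (1 without 82Q-1, 82Q-3, 82Q-5, 82Q_M120A-4 or 82Q_M120A-5, when Ttbk2 was lost). The genes that changed sign were never called there: Ttbk2 in 82Q against WT (-0.0187 to 0.0271), and Ppp2r2b in 82Q against WT (-0.0129 to 0.0181), 82Q_M120A against WT (-0.00616 to 0.0324) and 82Q_M120A against 82Q (-0.0154 to 0.0231). No paired analysis was possible because the columns carry no replicate numbers.

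The smallest called change among the 9 was 1.06-fold (Afg3l2 in 82Q_M120A against WT), and that call was lost in some settings. For a gene that was not called, the interval, and not the p, bounds its change.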
